A study of Mus musculus with 28 samples.

Results

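Whole brains of untreated mice lacking the beta4 subunit of the nicotinic acetylcholine receptor were compared with whole brains of untreated wild-type mice, on 11 of the 28 Affymetrix U74Av2 arrays of a study of nicotine-induced seizures. The arrays were chosen by their labels alone, as those of the untreated beta4 null group (5 mice) and the untreated wild-type group (6 mice), and each array held the total RNA of 1 mouse. All mice were labelled C57BL/6J. The beta4 null mice (beta4-/-) were 3 males and 2 females of 6 to 9 weeks, and their array titles all began with B4. The wild-type mice were 3 males and 3 females of 6 to 9 weeks, of which 3 had titles beginning with LT, all aged 6 weeks, and 3 had titles beginning with B4, aged 7 to 9 weeks. Seized mice of the same genotypes served as a second, separate set of animals: 4 beta4 null and 3 wild-type mice taken 1 hour after a nicotine-induced seizure, with nicotine doses that differed between genotypes by design. The remaining arrays held mice heterozygous for the alpha7 L250T allele, and those that were untreated (5 mice) are used here only as a further level for some genes. The beta4 null allele was absent from the wild-type groups, and neither the stem cell line nor the number of backcrosses behind it is stated in the labels.

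Nicotinic acetylcholine receptors are ligand-gated cation channels built of subunits around a central pore, and the beta4 subunit, encoded by Chrnb4, assembles mainly with the alpha3 and alpha5 subunits. The genes of these partner subunits lie beside Chrnb4 on mouse chromosome 9. In the brain, beta4 is concentrated in the medial habenula and the interpeduncular nucleus, small regions that contribute little to whole-brain RNA, and mice without beta4 are known to be less sensitive to nicotine-induced seizures. In whole-brain RNA, fewer cells of a type and less RNA per cell cannot be told apart.

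Each array carried 12488 probe sets, of which 7350 (59.2%, control probe sets left out) exceeded their own array's median signal in at least 3 of 28 arrays and were tested. A probe set is a group of short oligonucleotides against 1 transcript, and its value is a MAS5 signal, scaled so that the trimmed mean of every array lay between 150.08 and 150.1. The ratio of the 3' to the 5' control probe set for Gapdh, a measure of how far labelled RNA reaches towards the 5' end, split the arrays at a log2 ratio of 0.5. Of the beta4 null mice, 2 (numbers 1 and 2) had low ratios and 3 had high ratios, while all 6 wild-type mice had high ratios. The log2 ratio averaged 1.28 less in beta4 null than in wild-type mice (difference -1.28, exact permutation test, two-sided p = 0.00433, n = 5 and 6), and the beta-actin ratio differed the same way (-0.88, exact permutation p = 0.00433). Among the high-ratio arrays alone, 3 beta4 null against 6 wild-type, the Gapdh difference was -0.585 (exact permutation p = 0.0238). The first principal component of the 11 arrays held 41.2% of the variance and placed beta4 null mice 1 and 2 at -52.2 and -55.8, with the other 9 arrays between 5.2 and 18.3. As a check of the tissue label, 9 of 10 neuronal, 8 of 10 astrocyte and 7 of 10 oligodendrocyte marker genes were bright enough to be tested. Rank correlations between mice of a group ranged between 0.882 and 0.974. The sex transcripts Eif2s3y and Xist went against the label in 1 wild-type mouse (number 5, labelled female, at 89.1 and 1.44). In 1 beta4 null mouse (number 3, labelled male) both were low, at 7.46 and 9.95. Without these 2 mice Spg21 was again the only gene called, at -2.58, and Pts had -1.35 and Dlat -0.55. Array class moved with genotype, so differences were also computed with array class as a covariate or on high-ratio arrays alone.

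A single gene, Spg21, passed the test between untreated beta4 null and wild-type brains, and it fell. Of 7350 probe sets, 1 (0.0136%) had an adjusted p under 0.05 (limma, Benjamini-Hochberg) and no probe set was called higher. At an unadjusted p under 0.05, 951 probe sets (12.9%) were counted, 390 lower (5.31%) and 561 higher (7.63%) in beta4 null brains. With array class as a covariate the called gene was again Spg21 alone, and 503 probe sets (6.84%) had an unadjusted p under 0.05. On high-ratio arrays alone the unadjusted count was 296 (4.03%), and against the 3 wild-type mice with B4 titles alone it was 433 (5.89%), with Spg21 the only call each time. Without beta4 null mouse 1 the unadjusted count was 393, and without beta4 null mouse 2 it was 405.

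Spg21 encodes maspardin, the protein lost in the human hereditary spastic paraplegia known as Mast syndrome. It lies on chromosome 9, 123 protein-coding genes beyond Chrnb4 in RefSeq gene order, and was measured by 1 probe set (its suffix, _f_at, marks oligonucleotides that can match several members of a sequence family). Its promoter window from RefSeq (GRCm38.p6, 250 bases before to 50 bases after the gene's start, chr9:65460687-65460986, plus strand) is shown because Spg21 is the gene that passed the test. Capitals mark matches to a GC box (GGGCGG) or an ETS motif (CCGGAAG) on either strand.
Spg21: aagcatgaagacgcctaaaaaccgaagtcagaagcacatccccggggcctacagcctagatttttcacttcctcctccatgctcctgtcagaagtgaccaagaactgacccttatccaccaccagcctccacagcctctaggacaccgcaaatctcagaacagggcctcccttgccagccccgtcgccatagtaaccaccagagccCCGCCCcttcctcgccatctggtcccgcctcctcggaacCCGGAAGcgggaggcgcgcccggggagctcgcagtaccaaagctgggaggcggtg
The signal of Spg21 was 47.6, 49.4, 83.4, 82.0 and 102 in the 5 beta4 null mice, against 441, 427, 477, 534, 433 and 212 in the 6 wild-type mice. Every beta4 null mouse lay below every wild-type mouse, the lowest wild-type value being that of mouse 6. The means were 72.9 ± 23.7 in beta4 null and 420.6 ± 109.9 in wild-type brains (SD, n = 5 and 6). On the log2 scale the difference was -2.54 ± 0.31 (SE, 95% interval -3.18 to -1.9, adjusted p = 7.84e-05 by limma), or 5.81-fold lower in beta4 null brains. The 2 low-ratio beta4 null arrays gave the lowest Spg21 signals, yet on high-ratio arrays alone the difference was -2.19 and with array class as a covariate -2.16. Against the 3 B4-titled wild-type mice alone it was -2.39. The untreated alpha7 L250T heterozygous mice, whose labels name no beta4 allele, had Spg21 signals between 179 and 444, all above the highest beta4 null value. The seized animals, which share no array with the untreated ones, had Spg21 signals of 48.7, 54.7, 81.4 and 84.5 in beta4 null brains and 496, 555 and 441 in wild-type brains. Their difference was -2.92, and Spg21 was also the only gene called there (1 of 7350, 0.0136%, limma). The genotype difference of Spg21 after seizure minus that before was -0.38 (unadjusted p = 0.454), and no probe set was called in that comparison of differences (0 of 7350 by limma, with 212 or 2.88% at an unadjusted p under 0.05).

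Pts, Dlat and Sdhd form a cluster on the other side of Chrnb4, 59, 51 and 55 protein-coding genes before it. Pts encodes pyruvoyl-tetrahydropterin synthase, which acts in the synthesis of tetrahydrobiopterin, the cofactor of the tyrosine and tryptophan hydroxylases. Dlat encodes the acetyltransferase subunit of the pyruvate dehydrogenase complex, and Sdhd a membrane anchor subunit of succinate dehydrogenase. Their promoter windows (RefSeq, GRCm38.p6, same window, minus strand: Pts chr9:50528607-50528906, Dlat chr9:50659731-50660030, Sdhd chr9:50603800-50604099) are shown beside that of Spg21 because these genes lie close together, with the same motifs in capitals.
Pts: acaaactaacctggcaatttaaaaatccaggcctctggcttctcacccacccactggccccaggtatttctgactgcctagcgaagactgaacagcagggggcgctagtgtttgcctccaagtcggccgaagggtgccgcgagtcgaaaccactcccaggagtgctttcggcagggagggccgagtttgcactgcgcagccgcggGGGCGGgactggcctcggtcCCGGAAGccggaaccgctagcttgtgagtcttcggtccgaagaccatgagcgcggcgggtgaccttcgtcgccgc
Dlat: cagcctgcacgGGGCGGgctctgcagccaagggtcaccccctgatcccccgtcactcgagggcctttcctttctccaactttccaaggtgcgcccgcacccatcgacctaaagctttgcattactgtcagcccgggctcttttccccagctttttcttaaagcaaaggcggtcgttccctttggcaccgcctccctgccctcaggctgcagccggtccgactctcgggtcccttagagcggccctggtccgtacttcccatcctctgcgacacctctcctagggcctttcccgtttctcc
Sdhd: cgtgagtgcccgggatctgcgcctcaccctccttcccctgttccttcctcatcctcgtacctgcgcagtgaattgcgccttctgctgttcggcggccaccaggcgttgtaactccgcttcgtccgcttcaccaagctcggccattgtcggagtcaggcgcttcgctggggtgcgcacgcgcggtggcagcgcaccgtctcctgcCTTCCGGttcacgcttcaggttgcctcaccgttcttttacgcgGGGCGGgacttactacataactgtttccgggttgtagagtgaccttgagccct
All 4 windows held 1 GC box, which 35.7% of 32851 mouse promoter windows of this length hold. The ETS motif was found 1 time each in Spg21, Pts and Sdhd and not in Dlat, and 8.86% of all windows hold it. No window held CCAAT (37.4% of all windows) or TATAAA (13.6%), both searched on both strands. GC content was 61.0% in Spg21, 62.7% in Pts, 62.0% in Dlat and 62.0% in Sdhd, against a median of 52.7% over all windows.

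Pts did not pass the adjusted test but separated beta4 null from wild-type in every mouse. Its signal was 62.1, 42.4, 84.7, 34.1 and 94.6 in the 5 beta4 null mice, and had a lowest value of 112, a median of 147 and a highest value of 169 in the 6 wild-type mice. The highest beta4 null mouse lay below the lowest wild-type mouse. The untreated alpha7 L250T mice had Pts signals between 91.4 and 198.4 (median 162.7), the lowest being below the highest beta4 null value. Over all 7350 probe sets, groups did not overlap in 80 (1.09%), of which 35 (0.476%) were lower in beta4 null mice. The log2 difference was -1.25 ± 0.27 (SE, 95% interval -1.8 to -0.70), or 2.38-fold lower, with an unadjusted p of 7.4e-05 and an adjusted p of 0.272 (limma). It was -1.12 on high-ratio arrays alone, and the 2 low-ratio mice lay within the range of the other beta4 null mice. In seized mice Pts had signals of 54.5, 30.1, 67.1 and 117 in beta4 null brains, against 185, 132 and 162 in wild-type brains, again without overlap. The seized difference was -1.40 (unadjusted p = 0.00031, adjusted p = 0.763 by limma).

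Dlat showed a smaller and tighter difference. Its brighter probe set read 124, 131, 132, 116 and 132 in the 5 beta4 null mice, and 148, 191.5 and 229 as the lowest, median and highest of the 6 wild-type mice. All beta4 null values lay below all wild-type values. The log2 difference was -0.56 ± 0.13 (SE, adjusted p = 0.316 by limma), or 1.48-fold lower, and it was -0.57 on high-ratio arrays alone and -0.57 in seized mice (unadjusted p = 0.00175). In seized mice Dlat signals of 130, 132, 110 and 156 in beta4 null brains stood against 229, 180 and 178 in wild-type brains. The second Dlat probe set was dim, exceeding its array's median in 3 of 28 arrays, and its difference was 0.12 (unadjusted p = 0.699). When the untreated and seized genotype differences were averaged, a contrast chosen after the data were seen, 3 of 7350 probe sets were called (0.0408%, limma): Spg21, Pts (adjusted p = 0.00538) and Dlat (adjusted p = 0.0238), and 1232 (16.8%) had an unadjusted p under 0.05. With array class as a covariate this average called 2 probe sets (0.0272%), those of Spg21 and Pts (adjusted p = 0.0385), and not Dlat (adjusted p = 0.0911). The average called Spg21 alone with title prefix as a covariate, against B4-titled wild-type mice only and on high-ratio arrays only.

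Sdhd overlapped between genotypes. Its signal was 578, 493.3, 325, 420 and 291 in the 5 beta4 null mice, and 326, 638 and 726 as the lowest, median and highest of the 6 wild-type mice. The difference was -0.48 ± 0.21 (SE, unadjusted p = 0.0298, adjusted p = 0.366 by limma), and it was -0.74 on high-ratio arrays alone. In seized mice Sdhd had -0.38 (unadjusted p = 0.162 by limma). In the succinate dehydrogenase complex the other measured subunits had positive values in untreated mice, 0.35 for Sdhc, 0.50 for Sdha and 0.22 for Sdhb. None of them was called (adjusted p = 0.356 for Sdhc and 0.368 for Sdha by limma). With array class as a covariate they had 0.35, 0.20 and 0.13, and in seized mice -0.23, 0.37 and 0.25, in the same order.

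**Figure D1:**
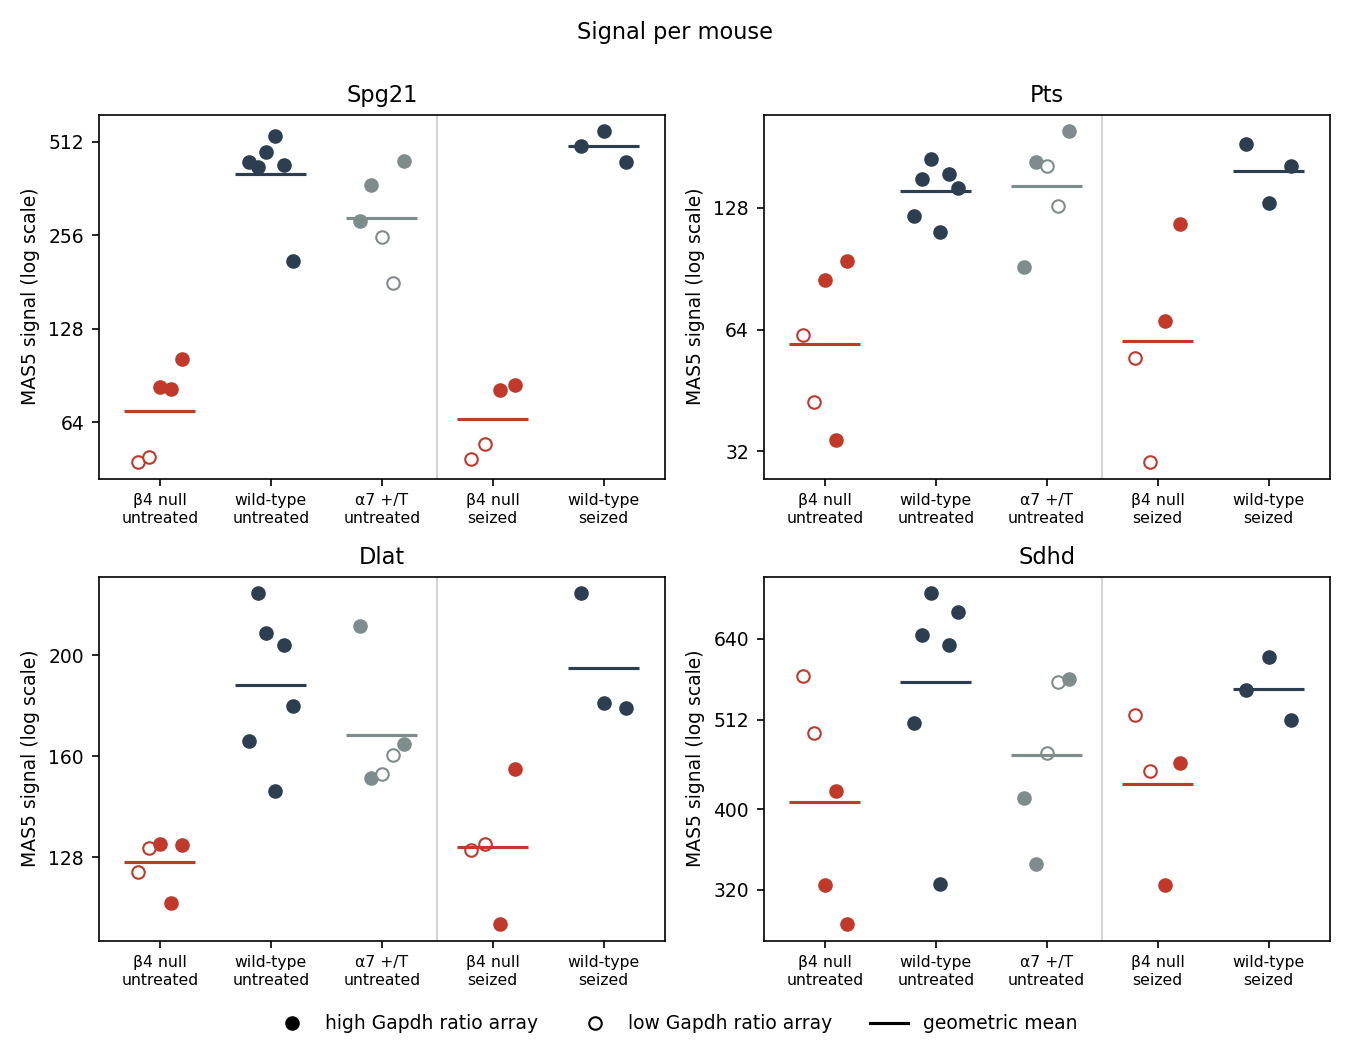
MAS5 signal (log axis) of Spg21, Pts, Dlat (the brighter probe set) and Sdhd in each mouse, by genotype and treatment, with open circles for arrays of low Gapdh ratio and bars for geometric means. Beta4 null mice lie below all wild-type mice for Spg21, Pts and Dlat, both untreated and seized, and overlap them for Sdhd.

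None of the 10 nearest measured genes on either side of Chrnb4 was called. The closest before it were Psma4, a proteasome subunit 3 genes before Chrnb4, with a log2 difference of 0.05 (95% interval -0.264 to 0.365), and Ireb2, an iron-regulatory RNA-binding protein 6 genes before it, with -0.02 (interval -0.446 to 0.414). On the other side, Tmem266, 4 genes after, had -0.42 (unadjusted p = 0.041). The largest difference among these 20 genes apart from Cryab was that of 1700017B05Rik, 26 genes after, with 0.54 (unadjusted p = 0.00355). At an unadjusted p under 0.05 stood 1 of 10 genes before (10%) and 2 of 10 after (20%), against 13.2% of all 5599 genes. The median absolute difference was 0.18 over the 10 before and 0.277 over the 10 after, against 0.208 over the genes of other chromosomes. The dopamine receptor gene Drd2, 64 genes before Chrnb4 and near Pts, had a difference of -0.22 (unadjusted p = 0.183).

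Chromosome 9 held more genes with a difference in both sets of animals than the other chromosomes. With 1 probe set per gene, 44 of 5599 genes (0.786%) had an unadjusted p under 0.05 and the same sign in both the untreated and the seized comparison. These were 10 of 296 positioned genes on chromosome 9 (3.38%) and 34 of 5301 on the other chromosomes (0.641%). With array class as a covariate they were 11 of 5599 genes (0.196%), 5 of 296 on chromosome 9 (1.69%) and 6 of 5301 elsewhere (0.113%). Much of this rested on Spg21, Pts and Dlat. Among the 140 genes within 70 measured genes of Chrnb4 on either side, 8 stood without the covariate and 4 with it. Leaving out Spg21, Pts and Dlat, these were 5 of 137 (3.65%) and 1 of 137 (0.73%). In the untreated comparison alone, where 741 of 5599 genes (13.2%) had an unadjusted p under 0.05, 53 of 296 genes of chromosome 9 (17.9%) and 13% of those elsewhere did. That untreated share was not particular to chromosome 9, being 17.6% on chromosome 7 and 15.8% on chromosome 19. Nor was it higher near Chrnb4, at 16.4% within 70 measured genes and 19.2% beyond them on chromosome 9. In the seized comparison alone the count was 238 of 5599 (4.25%). No test was made of this difference in shares, since neighbouring genes are not independent.

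The 10 genes of chromosome 9 lay between 59 genes before and 239 genes after Chrnb4. Besides Spg21, Pts and Dlat, the lower ones were Cryab (alpha-B crystallin, a small heat shock protein), Adpgk (an ADP-dependent glucokinase), Tmod3 (tropomodulin, which caps actin filaments) and Myo6 (an unconventional myosin). Cryab had signals of 56.6, 50.6, 105, 69.8 and 122 in beta4 null mice, against a range of 102 to 174 in wild-type mice, and the groups overlapped. Its difference was -0.81 in untreated and -0.83 in seized mice. Adpgk did not overlap, with 28.4 to 52.0 in beta4 null mice and 59.6 to 72.4 in wild-type mice, and differed by -0.75 in untreated and -0.64 in seized mice. Tmod3 differed by -0.64 and -0.60, and Myo6 by -0.63 and -0.59, in the same order, while 2 further Myo6 probe sets had 0.86 and -0.05 in untreated mice. The higher ones were Pkm (pyruvate kinase, 0.97 untreated and 1.11 seized), Oaz2 (an ornithine decarboxylase antizyme, 0.73 and 0.61) and Eef1a1 (translation elongation factor, 0.56 and 0.77). For Pkm the 2 low-ratio beta4 null mice were highest, at 3496 and 3211 against 1423 to 1885 in the other beta4 null mice and 848 to 1585 in wild-type mice, and a second Pkm probe set differed by -0.08. None of these 7 genes passed the adjusted test in either comparison. Over the other settings of the fit, the untreated values nearest to 0 were 0.42 for Pkm, 0.27 for Oaz2 and 0.14 for Eef1a1. Those of the lower genes were -0.43 for Cryab, -0.44 for Adpgk, -0.38 for Tmod3 and -0.36 for Myo6.

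**Figure D2:**
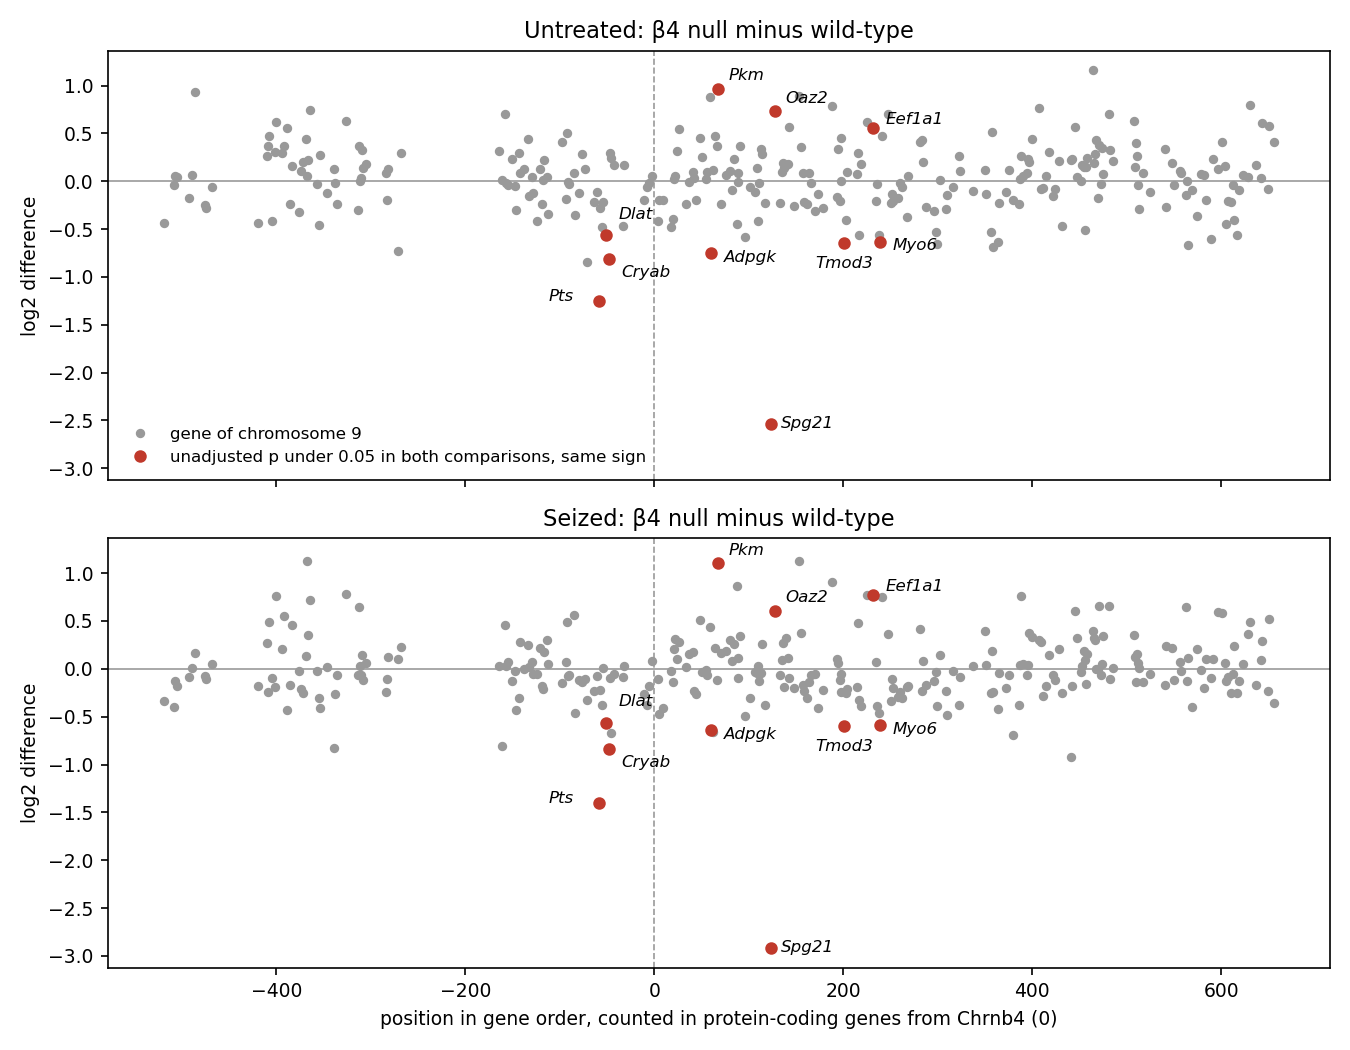
Log2 difference (beta4 null minus wild-type) of 296 genes of chromosome 9 against their position in gene order, counted in protein-coding genes from Chrnb4, in untreated mice (top) and seized mice (bottom). The 10 genes with an unadjusted p under 0.05 and the same sign in both comparisons are coloured and lie between -59 and 239, with Spg21 at -2.54 and -2.92.

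The untreated and seized differences were also set against each other across genes. Over the 70 measured genes on each side of Chrnb4 (140 genes, a distance chosen after the data were seen) Pearson's r between the 2 differences was 0.734, against 0.518 over the other 156 genes of chromosome 9 and 0.533 over 5301 genes of other chromosomes. With array class as a covariate r was 0.58 near Chrnb4, 0.197 farther along chromosome 9 and 0.0265 on other chromosomes. By stretch, r was 0.776 over the 11th to 40th measured gene before Chrnb4, which hold Pts and Dlat, and 0.93 over the 41st to 70th after it, which hold Spg21. In the other near stretches it was 0.469 (1st to 10th before), 0.39 (41st to 70th before), 0.574 (1st to 10th after) and 0.534 (11th to 40th after), beside the 0.533 of other chromosomes. Without Spg21, Pts and Dlat the 137 remaining near genes had an r of 0.575, or 0.267 with the covariate. These are descriptions across genes, which are not independent replicates. No array is shared between the 2 comparisons, but both set 2 low-ratio beta4 null arrays, beside 3 or 2 of high ratio, against wild-type arrays of high ratio only. DNA that flanks a targeted allele can stay linked to it through backcrossing, and whether it did so here was not tested.

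**Figure D3:**
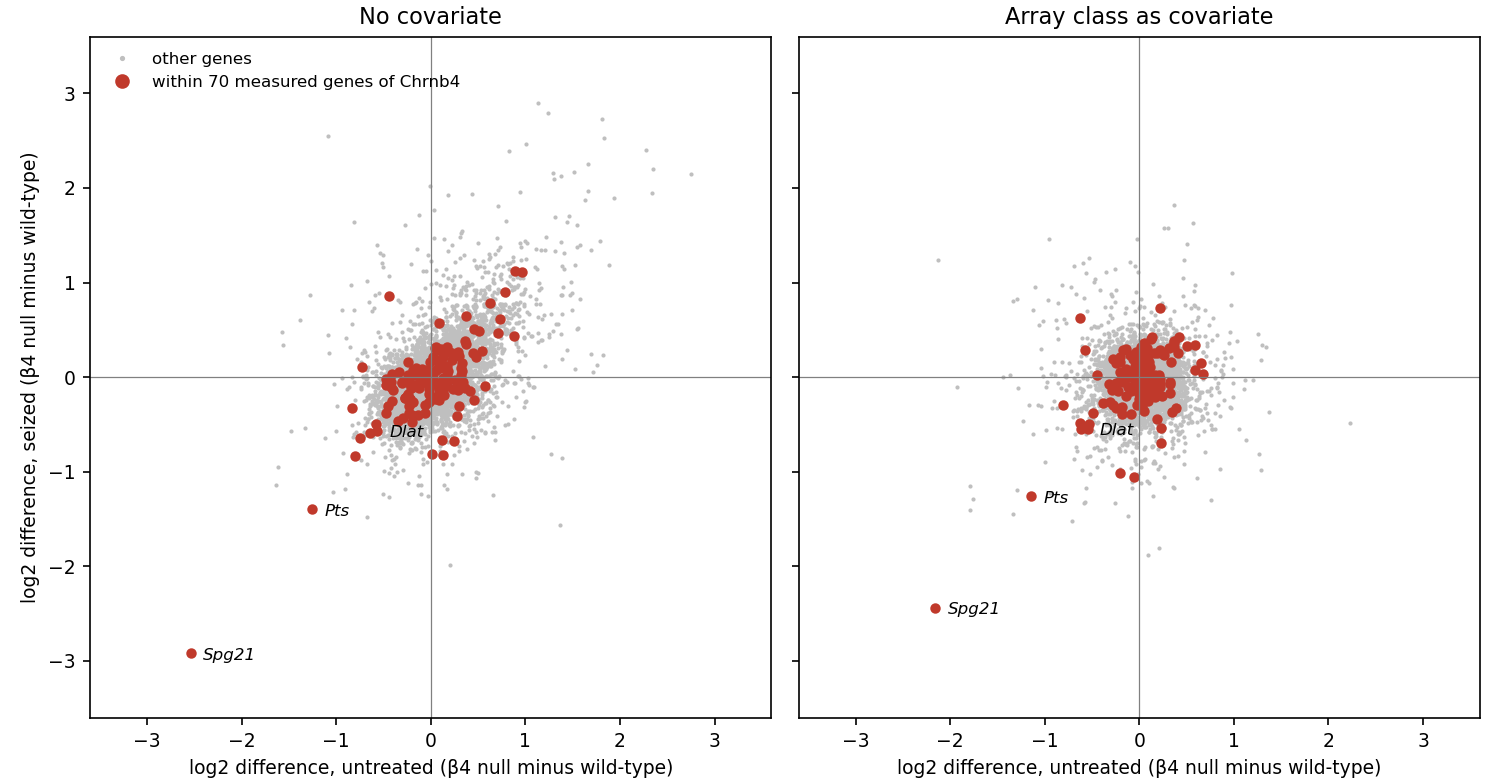
Log2 difference (beta4 null minus wild-type) in seized mice against that in untreated mice for 5599 genes, without a covariate (left) and with array class as a covariate (right), with the 140 genes nearest to Chrnb4 coloured. Without the covariate the cloud is tilted (r = 0.533 on other chromosomes), with it the tilt is nearly gone (r = 0.0265), and Spg21 and Pts stay far from the origin in both.

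The targeted gene itself was not checked, since no probe set was paired with Chrnb4, and the partner subunits Chrna3 and Chrna5 are likewise not analysed here. Of 16 nicotinic subunit genes listed, 3 were bright enough to be tested and none was called. Chrna7, the subunit of the homomeric alpha7 receptor, had signals of 86.5, 82.2, 59.3, 42.6 and 36.2 in beta4 null mice and of 39.6 to 90.9 in wild-type mice. The difference of Chrna7 was -0.06 (95% interval -0.839 to 0.728, adjusted p = 0.954 by limma). Chrng, the gamma subunit of fetal muscle receptors, had a difference of -1.62 (unadjusted p = 0.00145, adjusted p = 0.336), with signals of 12.9, 9.06, 14.9, 9.52 and 45.0 in beta4 null mice and 34.6 to 62.9 in wild-type mice. That probe set exceeded its array's median in only 5 of 28 arrays, and a second, dimmer Chrng probe set read 12.4 to 32.9 in beta4 null mice, against 4.92 to 18.6 in wild-type mice, higher rather than lower. Chrne, the epsilon subunit of adult muscle receptors, had 0.88 (unadjusted p = 0.0113), with 122 to 202 in beta4 null mice and 39.98 to 144 in wild-type mice. In seized mice the Chrne difference was -0.45. A dimmer Chrne probe set read 7.69 to 62.0 in untreated beta4 null mice and 8.46 to 28.7 in untreated wild-type mice. The dimmest read 3.76 to 5.48 and 3.35 to 10.5, in the same order. The probe sets of Chrnb2, Chrna6, Chrnb1, Chrna1 and Chrnd did not exceed the array median in any array. Of 10 genes listed as markers of the habenula and the interpeduncular nucleus, 2 were measured, and Tac2, a tachykinin of the medial habenula, had -0.19 (unadjusted p = 0.376).

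Below the threshold, and apart from Pts and Dlat, the 9 further genes lower and the 12 higher in beta4 null brains with the smallest p-values had adjusted p-values between 0.316 and 0.336, and none of these 21 genes had an unadjusted p under 0.05 in seized mice. Among those lower in beta4 null brains, Dio2, the deiodinase that makes active thyroid hormone from thyroxine, had signals of 98.8, 110, 383, 297 and 242 in beta4 null mice and a lowest, median and highest of 325, 494 and 701 in wild-type mice. The 2 low-ratio mice had the lowest Dio2 signals, and the difference was -1.33 over all mice, -0.72 on high-ratio arrays alone and -0.54 in seized mice (unadjusted p = 0.172). Gna11, a G protein alpha subunit that couples receptors to phospholipase C, was 194 to 303 in beta4 null mice and 320 to 490 in wild-type mice. The difference of Gna11 was -0.62 in untreated and -0.19 in seized mice, and a second probe set had -0.32. The others of this kind were Desi1 (-0.61, a desumoylating peptidase), Nrep (-0.45, a neuronal regeneration protein), Ostf1 (-0.70), Smarcd2 (-0.66, a chromatin remodelling subunit), Glmp (-0.49, a lysosomal membrane protein), Btbd17 (-1.02) and Phc2 (-0.64, a polycomb protein). In seized mice these 7 ranged between -0.32 and 0.29. Second probe sets of Desi1 (-0.07) and Smarcd2 (-0.12 and -0.07) had smaller differences. Btbd17 read 249, 133 and 215 in the LT-titled wild-type mice and 114, 70.2 and 73.1 in the B4-titled ones, beside 34.9 to 97.1 in beta4 null mice. Against the B4-titled mice alone Btbd17 had -0.42, and with high-ratio arrays only as well -0.09. In that same setting Phc2 had -0.25, Smarcd2 -0.24, Nrep -0.19 and Gna11 -0.19. The untreated alpha7 L250T mice, 2 of 5 on low-ratio arrays, read 295.5 to 325 for Dio2, below the lowest wild-type value of 325.4. Mean signals in alpha7, beta4 null and wild-type mice were 135.4, 143.9 and 225.5 for Phc2, and 208.8, 190.9 and 300.4 for Smarcd2. Low signals of Dio2, Phc2 and Smarcd2 were thus not confined to beta4 null mice. The alpha7 means of Gna11, Desi1, Nrep, Ostf1 and Btbd17 lay nearer to wild-type, and that of Glmp nearer to beta4 null.

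Among those higher in beta4 null brains, Akap12, a scaffold for protein kinase A, read 89.5, 85.5, 78.0, 68.9 and 90.3 in beta4 null mice and 17.1 to 60.8 in wild-type mice. Akap12 separated the genotypes in untreated mice by 1.0 on the log2 scale (0.753 to 1.12 with 1 mouse left out) and had -0.26 in seized mice. The change between the 2 had an unadjusted p of 0.00402 (limma). Akap12 was named for its small untreated p, and the untreated difference is part of that change. No probe set was called for such a change (0 of 7350). Larp7, a protein that stabilises a small nuclear RNA controlling transcription elongation, had 70.3, 38.4, 50.3, 66.5 and 33.5 in beta4 null mice and 7.55 to 26.6 in wild-type mice on 1 probe set. Its difference was 1.96 in untreated and -0.90 in seized mice, and a second Larp7 probe set had 0.17. Abca2, a lipid transporter of oligodendrocytes, was 518, 545, 251, 294 and 291 in beta4 null mice and 168 to 219 in wild-type mice, without overlap. With array class as a covariate the difference of Abca2 was 0.55, against 0.90 without it. The netrin and repulsive guidance receptor gene Neo1, 59 genes after Chrnb4, had 0.88, with 84.4 to 180 in beta4 null mice and 52.9 to 77.0 in wild-type mice. Further genes of this kind were Cel (1.38, a lipase), Snx12 (1.71, a sorting nexin), Cdk11b (1.10, a kinase), Inpp5k (0.52, a phosphoinositide phosphatase), Nsa2 (0.88, ribosome assembly), Efl1 (1.55, ribosome maturation), Ten1 (0.62, telomere maintenance) and Ppp1r15a (0.95, a stress-induced phosphatase subunit). A second probe set of Cdk11b had -0.18 and one of Snx12 had 0.78. Efl1 and the Larp7 probe set that differed were dim in wild-type mice. Efl1 read 10.2 to 44.9 there, beside array medians of 43.6 to 49.8. Over the other settings the lowest values were 0.56 for Cel, 0.50 for Cdk11b, 0.89 for Snx12, 0.83 for Efl1, 0.38 for Abca2, 1.17 for Larp7 and 0.56 for Neo1. The values nearest to 0 over those settings were -0.59 for Dio2, -0.42 for Ostf1 and -0.35 for Desi1. Untreated alpha7 L250T mice read 56.9 to 74.4 for Akap12 and 110.4 to 156.5 for Nsa2, whose highest wild-type value was 109.2. Mean signals in alpha7, beta4 null and wild-type mice were 375.6, 379.7 and 194.1 for Abca2, and 227, 236.1 and 163.4 for Inpp5k. High signals of Nsa2, Abca2 and Inpp5k were thus not confined to beta4 null mice. Alpha7 means of Akap12, Cel, Cdk11b, Efl1 and Ppp1r15a also lay nearer to beta4 null. Those of Snx12, Larp7, Ten1 and Neo1 lay nearer to wild-type.

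No member of the 13 gene lists or 14 cell type marker lists was called, and Spg21 is in none of them. Among lists with 7 or more measured genes, synaptic vesicle release genes had the highest median, and 6 of 16 measured were higher and 0 lower at an unadjusted p under 0.05, against 7.68% of all genes higher and 5.55% lower. Their median log2 difference was 0.50, against 0.03 over 5599 genes. Syt1, the calcium sensor of vesicle fusion, read 1291 and 1567 in the 2 low-ratio beta4 null mice, 415, 327 and 251 in the other beta4 null mice, and 139 to 265 in wild-type mice. With array class as a covariate the list's median was 0.06, with 2 genes higher and 1 lower (over all genes, 397 or 7.09% passed there, 4.11% higher and 2.98% lower), and on high-ratio arrays alone it was 0.07. Neuronal markers had 3 of 9 higher and a median of 0.48, or 0.16 with the covariate. GABA receptor and synthesis genes had 3 of 11 higher and 1 lower and a median of 0.37, or 0.15 with the covariate. In that list, Gad1, which makes GABA, had 2013 to 2158 in beta4 null mice and 1622 to 2064 in wild-type mice, a difference of 0.24 in untreated and -0.24 in seized mice. The difference between these 2 values of Gad1 had an unadjusted p of 0.00128 (limma), and no probe set was called for such a difference (0 of 7350). As with Akap12, Gad1 was named for its small untreated p, and the untreated value is part of that difference.

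Other genes of the pathways of Pts, Dlat, Sdhd and Cryab were counted at an unadjusted p under 0.05, at which 13.2% of all genes stood (7.68% higher and 5.55% lower). Of 10 measured tetrahydrobiopterin and monoamine synthesis genes, Pts was the only one with an unadjusted p under 0.05, and the list's median was 0.12. Spr, sepiapterin reductase, which completes tetrahydrobiopterin synthesis, had 0.45 (unadjusted p = 0.0804) and 0.22 with array class as a covariate. Of 7 genes of the pyruvate dehydrogenase complex and its regulators, 3 were lower and 0 higher at that threshold: Dlat, Pdhb (-0.27, a subunit of the first enzyme) and Pdk3 (-0.32, an inhibitory kinase). Pdha1, the partner of Pdhb, had 0.27 (unadjusted p = 0.153), and the list's median was -0.003. With the covariate only Dlat was left at that threshold. Of 17 tricarboxylic acid cycle genes, 4 were higher, among them Dlst (0.62, a subunit of the oxoglutarate dehydrogenase complex), and 1, Sdhd, was lower, and with the covariate 1 was higher and 1 lower. Of 22 heat shock genes, 3 were higher and 1, Cryab, was lower, with a median of 0.003. The other lists had few such genes: 1 of 4 cholinergic genes was higher (Chrm1, a muscarinic receptor, 1.70, or 0.75 with the covariate), 1 of 8 ionotropic glutamate receptor genes was higher and 1, Grin2c, was lower (-0.45), 1 of 15 immediate early genes, Jund, was lower (-0.53), and 1 of 11 potassium channel genes was higher. Over the other settings the values nearest to 0 were 0.19 for Chrm1, -0.09 for Grin2c and -0.33 for Jund. Chrm1 was dim in wild-type mice, at 7.01 to 24.5 beside array medians of 43.6 to 49.8. Stip1, a co-chaperone and heat shock list member, read 387 and 269 in the 2 low-ratio mice, 64.2, 75.1 and 62.9 in the other beta4 null mice and 37.5 to 65.2 in wild-type mice.

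Markers of brain cell types held no called gene. They were counted at an unadjusted p under 0.05, at which 7.68% of all genes were higher and 5.55% lower. In lists this short a count of 1 is not read as a result about a cell type. Of 8 microglial markers 1 was higher, C1qa, a complement component, and the median of 0.33 became -0.01 with the covariate. Of 8 astrocyte markers 2 were higher, Glul (0.66, glutamine synthetase) and Ndrg2 (0.39), with a median of 0.04. A second probe set of Glul had 0.01, and one of Ndrg2 had -0.64. Of 7 oligodendrocyte markers 1 was lower, and the median was 0.17, or -0.24 with the covariate. That marker, Mobp, a myelin protein, had -0.44 on its brightest probe set and 0.67 to 1.14 on 3 others. Of 10 endothelial and pericyte markers 1 was lower, Eng (-0.67, endoglin), with a median of -0.08. Summed signals of the list ranged between 1105 and 1469 in beta4 null mice and between 1249 and 1802 in wild-type mice. Of 4 hypothalamic markers 1, Trh, was higher, and of 3 olfactory bulb markers 1, Tbr1, was lower (-0.60, or -0.29 with the covariate). Over the other settings the Tbr1 value nearest to 0 was -0.008. Blood, choroid plexus, meninges, pituitary, retina, cerebellum and striatum lists held no gene at an unadjusted p under 0.05. Among neuropeptides, Cck was lower without overlap, at 1373 to 1681 in beta4 null mice and 1683 to 2898 in wild-type mice. Its difference was -0.41 in untreated and 0.24 in seized mice, and over the other settings the untreated value nearest to 0 was -0.105. Trh, thyrotropin-releasing hormone, had 1.34 (unadjusted p = 0.0157) and 0.56 in seized mice. It was dim in untreated wild-type mice, at 6.12 to 44.0 beside array medians of 43.6 to 49.8.

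**Figure D4:**
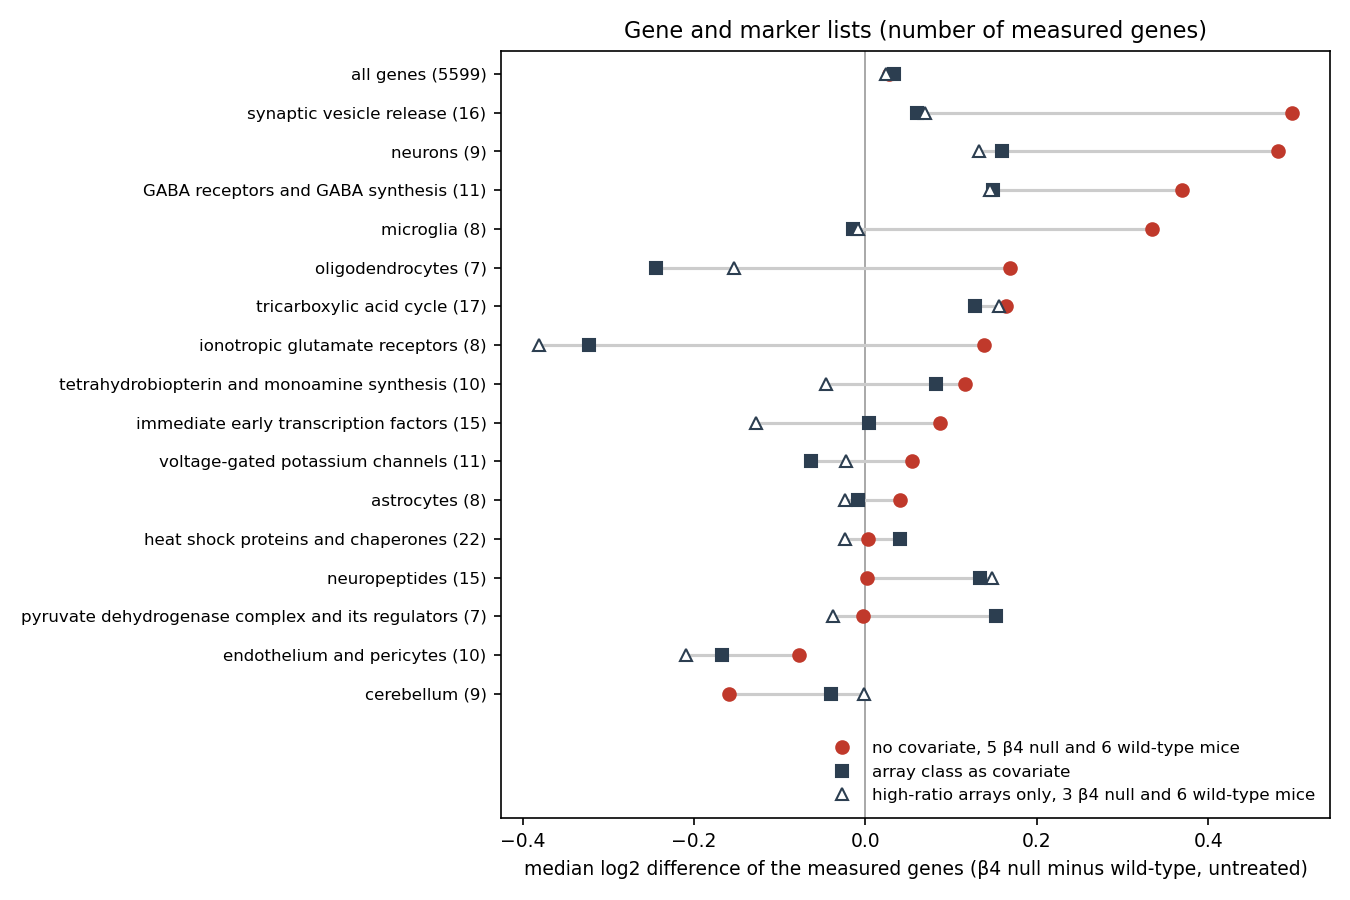
Median log2 difference (beta4 null minus wild-type, untreated) of the measured genes of each list with 7 or more of them, as fitted without a covariate (circles), with array class as a covariate (squares) and on high-ratio arrays alone (triangles). The medians of synaptic vesicle genes (0.50), neuronal markers (0.48) and microglial markers (0.33) move to 0.06, 0.16 and -0.01 with the covariate.

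**Figure D5:**
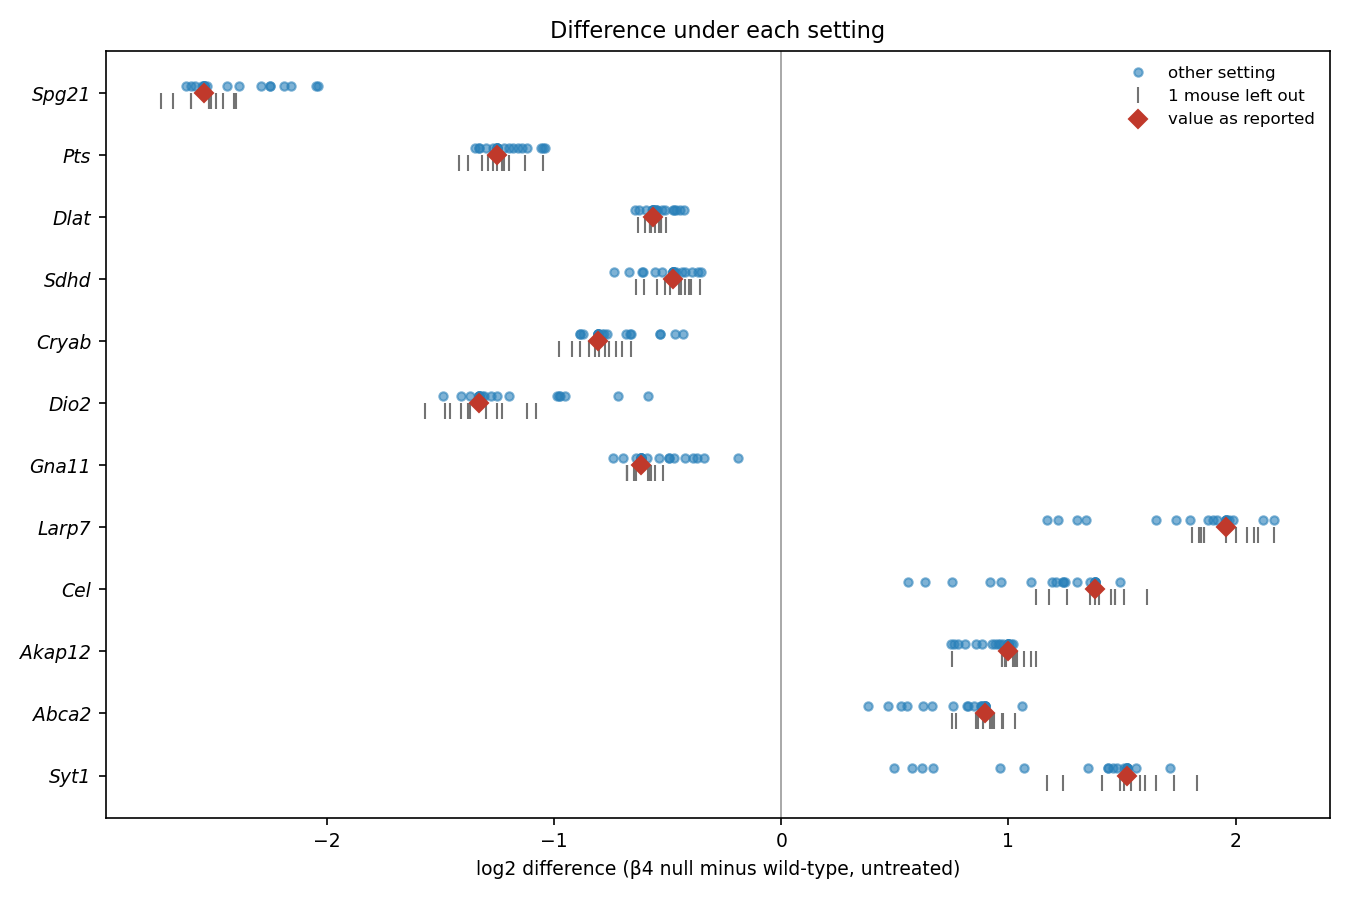
Log2 difference (beta4 null minus wild-type, untreated) of 12 genes as reported (diamonds), under the other settings (circles) and with 1 mouse left out at a time (ticks). Spg21 stays between -2.73 and -2.04 and Pts between -1.42 and -1.04, while Syt1 ranges between 0.50 and 1.83 and Dio2 between -1.57 and -0.59.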

How the data were processed

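Whole-brain total RNA was hybridised to Affymetrix U74Av2 arrays. The deposited values are signal intensities on a linear scale, which the authors made using MAS5 (named, with no version, in the submitters' processing notes). From these values log2 was taken, and probe sets above their own array's median in at least 3 of 28 arrays were kept. Group means of all 6 groups (28 arrays) were fitted with limma 3.58.1 in R 4.3.3 (lmFit, eBayes with trend), with Benjamini-Hochberg adjustment over 7350 probe sets and a threshold of 0.05. Probe sets were named from GEO's platform annotation (10833 with 1 gene, 396 with several, 1193 not listed), of which 10817 matched RefSeq genes, whose order gave positions. For gene counts the brightest probe set stood for a gene. Array class is low where the Gapdh 3' to 5' log2 ratio is under 0.5. Differences are beta4 null minus wild-type. Genes named are those called, up to 12 with the smallest p in each direction, the nearest neighbours of Chrnb4, nicotinic subunits and the leading members of each list. Sdhb and the 10 chromosome 9 genes were added after their values were seen. The members and lists were chosen with earlier results of these data known. Mice are separate animals, and their number limits the precision. The fit was tested on simulated data. Alternatives covered scaling, filter, pseudocount, variance model, covariates and mice left out.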

Additional observations from a re-analysis of the deposited data

Results flagged for a closer look

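Of 144 groups of signals (a gene in the untreated beta4 null or wild-type mice), 6 held a mouse far from the others by Dixon's test, which chance flags in about 1 in 20 groups. Grin2c, an NMDA receptor subunit, was 173.3 in beta4 null mouse 3, against 213.4 to 229.8 in the other beta4 null mice. Spg21 was 211.6 in wild-type mouse 6, against 426.8 to 534.2 in the other wild-type mice. Akap12 was 17.07 in wild-type mouse 1, against 38.2 to 60.77 in the others. Tmod3 was 599.7 in wild-type mouse 2, against 799.6 to 904.5 in the others. Gad1 was 2064 in wild-type mouse 6, against 1622 to 1769 in the others. Pdk3 was 338.3 in wild-type mouse 4, against 394.9 to 428.8 in the others.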

How the results depend on the processing

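Spg21 was called in 18 of 19 other settings (-2.62 to -2.04) and in all 11 fits with 1 mouse left out (-2.73 to -2.4). The exception was the fit to mice of 7 weeks or older. There 0 probe sets were called in the untreated comparison (265 at an unadjusted p under 0.05), and Spg21 had -2.25 (adjusted p = 0.282 by limma). That fit leaves out beta4 null mouse 1 and the LT-titled untreated wild-type mice, all aged 6 weeks, and the cause was not tested. Pts kept its sign in all 19 settings (-1.35 to -1.04) and was called in none. The median of all untreated differences moved only between -0.0425 and 0.0362 over the scalings. Array weights raised the seized count to 1999, the count for the average of both comparisons to 1431 and the count for the difference between them to 1 (Larp7), and the cause was not tested. The seized count was 2 with high-ratio arrays and B4-titled wild-type mice only, and ranged between 1 and 3 with 1 mouse left out, the 3 being without seized beta4 null mouse 4. The average of both comparisons called 1 probe set, Spg21, with title prefix as a covariate, with class and prefix as covariates, with B4-titled wild-type mice only, with high-ratio arrays only, with both restrictions and in mice of 7 weeks or older, and 2 to 4 with 1 mouse left out. Against the 3 B4-titled wild-type mice alone the Gapdh ratio difference was -1.24 (exact permutation p = 0.0714) and that of beta-actin -0.728 (exact permutation p = 0.143).

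Some signs turned, none of them of a called gene, and among them were reported differences of -0.318 for Pdk3, 0.273 for Pdha1 and -0.22 for Drd2. Psma4 was -0.0285 under median centring, -0.0076 with age, -0.0417 with title prefix and -0.0608 against B4-titled mice. Ireb2 was 0.134 with array class, 0.148 with class and prefix, 0.0652 against B4-titled mice, 0.0145 with high-ratio arrays and B4-titled mice and 0.0894 in mice of 7 weeks or older. Drd2 was 0.0148 against B4-titled mice and 0.00679 in mice of 7 weeks or older. Pdha1 was -0.0345 on high-ratio arrays, Pdk3 0.0217 with both restrictions, and the dim Dlat probe set -0.183 under quantile normalization. With 1 mouse left out, Chrna7 ranged between -0.201 and 0.114, Ireb2 between -0.0779 and 0.0336 and the dim Dlat probe set between -0.0386 and 0.318. No paired analysis was possible because the mice carry no labels that pair them across genotypes.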
